A study of Mus musculus with 4 samples.

Results

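The 10 genes described here belong to osteoclast formation, the program by which myeloid precursors become bone-resorbing giant cells, and they were followed in myeloid cells that had infiltrated skin tumours. They were taken by gene symbol as a set: Nfatc1, Mitf, Tnfrsf11a, Oscar, Dcstamp, Ocstamp, Acp5, Atp6v0d2, Slc9b2 and Car2, which is 10 of the 23420 symbols in the expression table. All 10 were found. Poly-A RNA was sequenced from cells sorted for CD11b, a myeloid integrin chain, and for CD200R1, the receptor of the surface protein CD200. The cells came from orthotopic cutaneous squamous cell carcinomas on the FVB/N background, and the comparison asks which genes of the infiltrating cells depend on CD200 in the tumour. The 2 WT libraries came from wild-type tumours with CD200. The 2 EpiKO libraries came from K14Cre;CD200fl/fl tumours. There, a Cre recombinase under the keratin 14 promoter deletes the floxed CD200 gene in keratin 14-expressing epithelial cells, and other cells keep it. The labels do not say whether the libraries of a group came from separate mice or from pools, so p-values measure the spread between these libraries, which may be technical.

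Osteoclasts form when the receptor RANK, encoded by Tnfrsf11a, and co-stimulatory receptors such as OSCAR drive the transcription factor NFATc1, which acts with MITF on the genes of the mature cell. The precursors then fuse with the help of the membrane proteins DC-STAMP and OC-STAMP. The fused cell secretes acid and enzymes through products such as carbonic anhydrase II, the d2 subunit of the vacuolar proton pump and tartrate-resistant acid phosphatase. Macrophages outside bone can express several of these genes, and some macrophages fuse into other kinds of giant cell.

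Each library held 15884132 to 21244158 reads assigned to genes. The unit is the normalised read count, that is reads divided by 1 size factor per library, and 3 reads stand for 2.52 to 3.48. Cd200r1, the gene of one sorted protein, read 318 and 293 for WT and 1101 and 612 for EpiKO, 2.81-fold higher (limma adjusted p = 0.115, DESeq2 adjusted p = 0.000244). Itgam, the gene of CD11b, read 26151 and 26738 for WT and 40692 and 30075 for EpiKO (limma adjusted p = 0.387), so both sort genes were higher in both EpiKO libraries, and their part in the results was not tested. Macrophage markers (9 genes) summed to 356005 and 305290 for WT and to 462852 and 393255 for EpiKO. Lyz2 made the largest part and was 1.54-fold higher in EpiKO (limma adjusted p = 0.335). Of 3 defining osteoclast markers outside the 10 genes, Ctsk, the gene of cathepsin K, read 10677 and 7022 for WT and 434 and 299 for EpiKO, Itgb3 lay between 126 and 170 in every library, and Calcr, the calcitonin receptor, had 6 and 12 reads for WT and 0 in both EpiKO libraries. The targeted gene Cd200 read 92.7 and 59.7 in the WT libraries against 17.2 and 15.1 in the EpiKO libraries, but the deletion is not made in the sorted cells, so this does not check the labels. Keratinocyte markers (7 genes) summed to 4428 in WT replicate 1 and to between 32.3 and 62.2 elsewhere. Of the Langerhans cell markers, Cd207 read 1201 and 590 for WT and 23.7 and 23.6 for EpiKO. Epcam, which epithelial cells also express, read 156 in WT replicate 1 and between 6.46 and 7.57 elsewhere. The pair summed to between 30.1 and 1357. Fibroblast markers summed to between 18262 and 31479. Of these, Pdgfra and Pdgfrb were higher and Col3a1 lower in both EpiKO libraries (limma adjusted p from 0.123 to 0.358). DESeq2 called Pdgfra (adjusted p = 0.01), and the other fibroblast markers overlapped. Neutrophil markers summed to between 750 and 2523. Endothelial markers summed to 207 and 174.8 for WT and 217 and 226 for EpiKO, and dendritic cell markers to 48.7 and 66.4 for WT and 28.0 and 46.3 for EpiKO. Osteoblast markers summed to between 229 and 734, most of it Runx2, which was 2.35-fold higher in EpiKO (limma adjusted p = 0.271), while Ibsp read 66.1 and 43.7 for WT and 8.61 and 8.51 for EpiKO (limma adjusted p = 0.0733, DESeq2 adjusted p = 0.0032) and Bglap and Sp7 had at most 1 read. T cell markers summed to between 100.1 and 1757 with Cd3e, Cd3d and Cd8a at or below 2.32, B cell markers to at most 5.80 and mast cell and basophil markers to between 12.3 and 144. Melanocyte markers summed to at most 22.0, and Tyr and Mlana had no read.

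In EpiKO, 3 of the 9 tested genes of the set were called lower. Of the 10 genes, 9 had a value of 10 or more in each of the 4 libraries and were tested, so none of them entered through its higher group alone. Nfatc1, Atp6v0d2 and Slc9b2 fell (adjusted p under 0.05 by limma, Benjamini-Hochberg over 12463 genes), 6 did not pass, and Oscar had too few reads to test. By the same rule 0.530% of all tested genes were lower. Both EpiKO libraries lay below both WT libraries for 8 of the 9, Dcstamp being the exception, where 23.8% of all tested genes did so. The median log2 fold change of the 9 was -1.61, beside -0.0021 over all tested genes. The 10 genes were chosen with earlier results of these data known, so these shares and medians describe the set and do not test it. In sorted bulk cells, fewer cells with such a program and less of its RNA in each cell cannot be told apart.

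**Figure D1:**
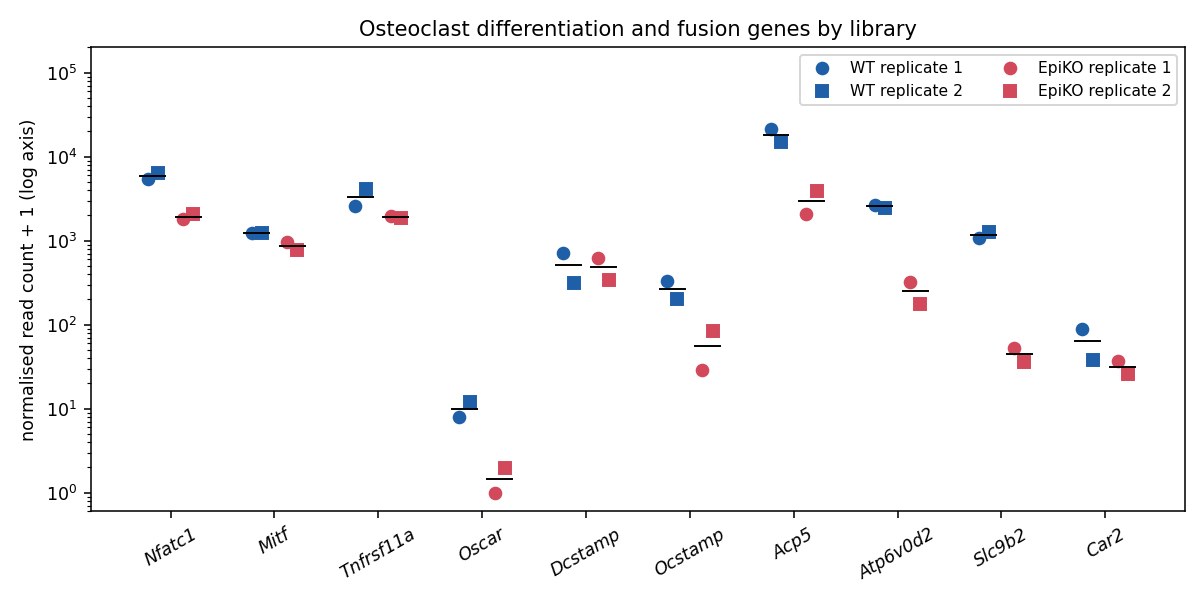
Normalised read count plus 1 on a log axis for the 10 genes, with circles and squares for replicates 1 and 2, blue for WT and red for EpiKO, and a line at each group mean. The points of the groups overlap for Dcstamp and are separate for the other 9 genes, most widely for Slc9b2 among the 9 tested genes.

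Leaving out a library ended most of the calls. Without WT replicate 1, the library with the keratinocyte transcripts, the log2 fold changes of Slc9b2, Atp6v0d2 and Nfatc1 were -4.85, -3.34 and -1.72, with limma adjusted p of 0.130, 0.165 and 0.143. Without WT replicate 2 they were -4.63, -3.48 and -1.504, with limma adjusted p of 0.162, 0.189 and 0.184. In each of these fits limma called 0 genes in the whole table, while 1332 and 1474 genes had an unadjusted p under 0.05. Without EpiKO replicate 1, Slc9b2 and Atp6v0d2 passed, at -5.02 and -3.84 (both with a limma adjusted p of 0.0308), and Nfatc1, at -1.52, did not (limma adjusted p = 0.131). Without EpiKO replicate 2, Slc9b2 alone of the 9 passed, at -4.46 (limma adjusted p = 0.0445), and Atp6v0d2 and Nfatc1, at -2.98 and -1.71, had limma adjusted p of 0.0539 and 0.0748.

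Other tools gave between 3 and 6 calls. The quasi-likelihood test of edgeR on the recovered reads called Nfatc1, Atp6v0d2 and Slc9b2, with 0.530% of all tested genes called lower. The Wald test of DESeq2 called Tnfrsf11a, Ocstamp and Acp5 as well, with 3.12% of all tested genes called lower. Cd207 fell with these genes (log2 fold change -5.10, limma adjusted p = 0.0329), and the part of Langerhans cells in the result was not tested.

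Nfatc1 encodes the transcription factor that osteoclast formation requires and that can drive it when overexpressed. Its normalised read count was 5465 and 6357 in the WT libraries against 1804 and 2057 in the EpiKO libraries. The replicates were close in both groups, and the groups were well apart. The mean was 5911 ± 631 (SD, n = 2) for WT against 1931 ± 179 (SD, n = 2) in EpiKO, 3.06-fold lower, and Nfatc1 fell by 1.61 on the log2 scale (SE 0.136, limma adjusted p = 0.0334). In mm10 it spans 80606205 to 80713071 of chromosome 18, minus strand, with 7469 exonic bases in 12 blocks, none shared with another annotated gene.

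None of the other 4 NFAT genes passed by limma. Nfatc2 had overlapping groups, with 1639 and 1857 in the WT libraries against 1330 and 1663 in the EpiKO libraries. Nfatc3 had a log2 fold change of -0.0056 (95% interval -0.37 to 0.36). Nfat5, which responds to osmotic stress, had one of -0.062 (95% interval -0.38 to 0.26), and Nfatc4 was low, between 26.9 and 89.8. The log2 ratio of Nfatc1 to Nfatc2 within a library was 1.74 and 1.78 for WT and 0.44 and 0.31 for EpiKO, so the excess of Nfatc1 reads over Nfatc2 reads was much smaller in both EpiKO libraries. With groups of 2 the smallest p of an exact two-sided permutation test is 0.33, and that was the value for this ratio and for the within-library ratios below, Mitf to Tfeb excepted.

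Mitf encodes a basic helix-loop-helix leucine zipper factor that acts with NFATc1 in osteoclasts and is the master factor of melanocytes. It read 1227 and 1236 in the WT libraries against 965 and 777 in the EpiKO libraries. The WT libraries were nearly equal and both EpiKO libraries lay below them. The log2 fold change of -0.51 (SE 0.139, 95% interval -0.86 to -0.16) did not pass by limma (adjusted p = 0.180) or by DESeq2 (adjusted p = 0.125). Mitf lies on chromosome 6, plus strand, from 97807052 to 98021349.

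The 3 relatives of Mitf that can pair with its product did not pass by limma either. Tfe3 lay between 2320 and 2505 in all 4 libraries, with a log2 fold change of 0.011 (95% interval -0.26 to 0.28). Tfeb, a regulator of lysosome genes, had overlapping groups and a log2 fold change of -0.12 (95% interval -0.58 to 0.33). Tfec, expressed mainly in macrophages, went the other way, with 576 and 441 in the WT libraries against 1298 and 926 in the EpiKO libraries. This log2 fold change of 1.12 (SE 0.221) missed the threshold by limma (adjusted p = 0.106) and passed by DESeq2 (adjusted p = 0.000858). The mean log2 ratio of Mitf to Tfe3 differed by -0.52 between the groups, and that of Mitf to Tfeb by -0.38, with overlapping groups (exact permutation p = 0.67, n = 2 per group). The log2 ratio of Mitf to Tfec was 1.09 and 1.48 for WT and -0.43 and -0.25 for EpiKO, so Mitf had more reads than Tfec in both WT libraries and fewer in both EpiKO libraries.

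**Figure D2:**
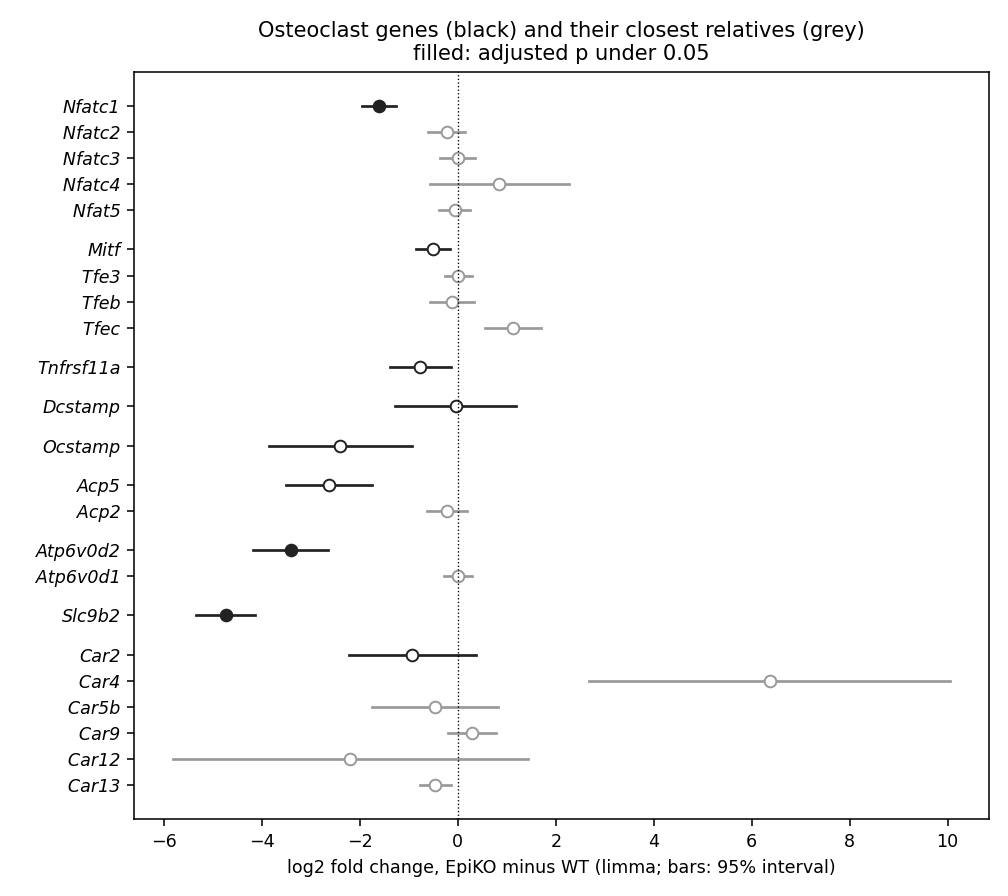
Log2 fold change, EpiKO minus WT, from limma with 95% intervals, for the 9 tested osteoclast genes in black, with filled points for an adjusted p under 0.05. Closest relatives are in grey below Nfatc1, Mitf, Acp5, Atp6v0d2 and Car2, and the other genes are shown without relatives. Nfatc1, Acp5 and Atp6v0d2 lie at -1.61, -2.64 and -3.41, whereas Nfatc3, Acp2 and Atp6v0d1 lie at -0.0056, -0.21 and -0.0037.

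Tnfrsf11a encodes RANK, the receptor whose ligand starts the program. It read 2555 and 4114 in the WT libraries against 1956 and 1856 in the EpiKO libraries. WT replicate 2 stood above the rest, and WT replicate 1 was nearer to the EpiKO libraries than to its own replicate. The log2 fold change of -0.77 (SE 0.241, 95% interval -1.39 to -0.14) did not pass by limma (adjusted p = 0.234) and passed by DESeq2 (adjusted p = 0.0328). Without WT replicate 2 it was -0.42. The gene lies on chromosome 1, plus strand, from 105780718 to 105847981. Tnfsf11, which encodes the ligand, was near the detection floor, at 13.9 and 0.841 for WT and 6.46 and 10.4 for EpiKO, and Tnfrsf11b, the decoy receptor osteoprotegerin, lay between 12.6 and 35.9.

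Oscar, an immunoglobulin-like receptor that binds collagen and co-stimulates osteoclast precursors, was barely detected. It had 6 and 13 reads for WT and 0 and 1 for EpiKO. Each WT library had more than either EpiKO library. The WT over EpiKO ratio was 18.4, with an exact binomial 95% interval of 2.92 to 764 that covers counting error only. The gene lies on chromosome 7, minus strand, from 3609813 to 3616157.

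Of the fusion genes, Ocstamp had separate groups and Dcstamp had overlapping groups. The 95% intervals of their log2 fold changes overlapped, so a different response of these genes was not shown. Ocstamp read 329 and 202 in the WT libraries against 28.0 and 82.2 in the EpiKO libraries. Both EpiKO libraries were lower, and they differed from each other by 2.94 times. For Ocstamp the log2 fold change, -2.40 (SE 0.568, 95% interval -3.86 to -0.93), did not pass by limma (adjusted p = 0.147) and passed by DESeq2 (adjusted p = 0.00128). It was -1.64 without EpiKO replicate 1 and -3.16 without EpiKO replicate 2. Dcstamp read 717 and 313 in the WT libraries against 617 and 342 in the EpiKO libraries. Its WT values enclosed both EpiKO values. For Dcstamp the log2 fold change was -0.044 (limma adjusted p = 0.980). The 95% interval of -1.28 to 1.20 gives the changes that these values do not exclude. The sign of the Dcstamp fold change was positive without WT replicate 1 (0.55) or without EpiKO replicate 2 (0.38).

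OC-STAMP and DC-STAMP are related multi-pass membrane proteins that both take part in fusion, and their genes were also compared within each library. The log2 ratio of Ocstamp to Dcstamp was -1.12 and -0.63 for WT and -4.41 and -2.04 for EpiKO. Both EpiKO libraries were below both WT libraries, with a difference in mean of -2.35 and an SD of 1.68 between the EpiKO libraries (exact permutation p = 0.33, n = 2 per group). Without EpiKO replicate 1 the difference was -1.17, and without EpiKO replicate 2 it was -3.54. Ocstamp lies on chromosome 2, minus strand, from 165393760 to 165400405, and Dcstamp on chromosome 15, plus strand, from 39745930 to 39760938.

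Among the tested genes of the set, Slc9b2, Atp6v0d2 and Acp5 had the largest log2 fold changes. Slc9b2, also known as NHA2, encodes a sodium-proton exchanger that is strongly induced in osteoclasts. It read 1074 and 1257 in the WT libraries against 51.7 and 34.97 in the EpiKO libraries. The libraries of each group were close, and the groups were more than an order of magnitude apart. The mean was 1166 ± 129 (SD, n = 2) for WT against 43.3 ± 11.8 (SD, n = 2) in EpiKO, 26.9-fold lower, and Slc9b2 fell by 4.74 on the log2 scale (SE 0.236, limma adjusted p = 0.0329). The gene lies on chromosome 3, plus strand, from 135307700 to 135345387. Its paralog Slc9b1 had 6 and 11 reads in the WT libraries and 0 in both EpiKO libraries. With 3 reads over the EpiKO group as the floor, it was 5.49-fold higher in WT. This figure leaves out counting error in WT and the spread between libraries. How reads of any stretch shared with Slc9b2 were assigned is not known, so the value of Slc9b1 is uncertain.

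Atp6v0d2 encodes the d2 subunit of the proton pump, found in osteoclasts, some macrophages and a few epithelia. It read 2694 and 2443 in the WT libraries against 324 and 178 in the EpiKO libraries. Both EpiKO values were far below both WT values. The mean was 2568 ± 177 (SD, n = 2) for WT against 251 ± 103 (SD, n = 2) in EpiKO, 10.2-fold lower, and Atp6v0d2 fell by 3.41 on the log2 scale (SE 0.296, limma adjusted p = 0.0336). The broadly expressed alternative subunit, Atp6v0d1, lay between 3838 and 4249 in all 4 libraries, with a log2 fold change of -0.0037 (95% interval -0.29 to 0.28). The log2 ratio of the d2 gene to the d1 gene was -0.66 and -0.65 for WT and -3.64 and -4.48 for EpiKO. Atp6v0d2 lies on chromosome 4, minus strand, from 19876841 to 19922605.

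Acp5 encodes tartrate-resistant acid phosphatase, the enzyme stained to identify osteoclasts. It read 21138 and 14871 in the WT libraries against 2099 and 3864 in the EpiKO libraries. Every EpiKO value was far below every WT value. The mean was 18005 ± 4431 (SD, n = 2) for WT against 2982 ± 1248 (SD, n = 2) in EpiKO, 6.04-fold lower. The log2 fold change of -2.64 (SE 0.340, 95% interval -3.52 to -1.76) missed the threshold by limma (adjusted p = 0.0540) and edgeR (adjusted p = 0.0555), and passed by DESeq2 (adjusted p = 3.17e-13). Acp2, a lysosomal acid phosphatase, lay between 3366 and 4555 with overlapping groups. The log2 ratio of Acp5 to Acp2 was 2.21 and 1.76 for WT and -0.68 and -0.19 for EpiKO. Acp5 lies on chromosome 9, minus strand, from 22126727 to 22135711. It shares 137 exonic bases with 6530413G14Rik on the plus strand, and without the strand setting of the counting the reads of the shared stretch cannot be told apart.

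Car2, the carbonic anhydrase that supplies protons to the pump, was low throughout, with 88.1 and 37.0 in the WT libraries against 35.5 and 24.6 in the EpiKO libraries. WT replicate 2 and EpiKO replicate 1 were nearly equal. The log2 fold change of -0.93 had a 95% interval of -2.22 to 0.36 (limma adjusted p = 0.469), and it was -0.31 without WT replicate 1 and -1.54 without WT replicate 2. Car2 lies on chromosome 3, plus strand, from 14886273 to 14900770. Red cell precursors also carry carbonic anhydrase II, and the erythroid markers summed to 246 and 910 for WT and to 215 and 374 for EpiKO, nearly all of it Hbb-bs, with Hba-a1 at 0. Their part in the Car2 values was not tested.

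Other carbonic anhydrase genes did not pass by limma. The membrane-anchored Car4 read 0 and 4.203 in the WT libraries against 656 and 52.9 in the EpiKO libraries (limma adjusted p = 0.134). Car13 read 855 and 823 for WT and 660 and 564 for EpiKO (limma adjusted p = 0.181). Car9, a hypoxia-responsive gene, lay between 105 and 134. Car12 read 119 in WT replicate 1 and at most 11.8 elsewhere, and Car5b overlapped between the groups. Over all 14 tested relatives of the 10 genes, limma called 0, 3 had an unadjusted p under 0.05 (15.6% of all tested genes did), edgeR called 0, and DESeq2 called 2, Tfec and Car4 (6.85% of all tested genes).

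Promoter windows from RefSeq (GRCm38.p6, 250 bases before an annotated start) were examined for 5 of the 10 genes, in 9 windows: Slc9b2, Acp5, Oscar, Tnfrsf11a and Mitf. Those printed belong to Slc9b2 and Acp5, which had the largest differences among the tested genes with a window, and to Oscar, whose window holds the most matches. They were chosen after the values were seen. The Slc9b2 window is chr3:135307450-135307699 on the plus strand, just upstream of the gene. The Acp5 window is that of its most downstream start, chr9:22130599-22130848 on the minus strand, and it lies within the gene, with 10 of its bases in exons, where the annotation also has 6530413G14Rik on the other strand. The Oscar window is chr7:3616158-3616407 on the minus strand, just upstream of the gene. Capitals mark GGAAA, the core bound by NFAT factors, which reads TTTCC on the other strand, and CATGTG, an E-box form bound by MITF and its relatives, which reads CACATG on the other strand.
Slc9b2: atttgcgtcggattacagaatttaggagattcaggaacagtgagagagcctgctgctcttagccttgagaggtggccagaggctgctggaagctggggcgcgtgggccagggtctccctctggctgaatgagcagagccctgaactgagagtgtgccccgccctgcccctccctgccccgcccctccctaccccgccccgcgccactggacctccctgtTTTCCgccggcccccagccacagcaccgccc
Acp5: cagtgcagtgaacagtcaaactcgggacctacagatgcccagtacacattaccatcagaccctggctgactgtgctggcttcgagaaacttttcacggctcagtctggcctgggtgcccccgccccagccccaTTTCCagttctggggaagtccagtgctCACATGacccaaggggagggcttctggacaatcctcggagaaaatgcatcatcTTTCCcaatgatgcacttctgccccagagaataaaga
Oscar: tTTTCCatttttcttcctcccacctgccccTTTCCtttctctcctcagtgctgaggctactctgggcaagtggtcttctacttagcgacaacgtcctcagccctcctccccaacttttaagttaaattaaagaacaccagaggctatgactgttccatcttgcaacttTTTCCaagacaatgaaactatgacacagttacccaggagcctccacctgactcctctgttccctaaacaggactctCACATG

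Both strands were searched. No window of Atp6v0d2, Ocstamp, Dcstamp or Car2 was searched. Windows on chromosome 18, which carries Nfatc1, were left out for the set but kept among all windows. Motifs at Nfatc1 and at these other genes were therefore not tested. The 9 windows are not separate genes, because Acp5 and Mitf have 3 windows each. GGAAA was in 7 of the 9 windows, all from Acp5, Mitf, Oscar and Slc9b2, and it is in 55.6% of all 32851 promoter windows of the same length. It lies 31 bases before the start in Slc9b2, 117 and 37 bases before it in the printed Acp5 window, and 249 (to the window's far edge), 220 and 82 bases before it in Oscar. CATGTG was in 2 of the 9 windows, 90 bases before the start in Acp5 and 6 bases before it in Oscar, and it is in 12.3% of all windows. TGANTCA, bound by AP-1, was in 0 of the 9 (6.75% of all windows), and so was CACGTG, another E-box form (6.02%). GAGGAA, a PU.1 core that can overlap GGAAA, was in the Oscar window alone of the 9 (23.3%). The Tnfrsf11a window and the most upstream Mitf window held none of these motifs. The other Mitf windows, with 1 GGAAA each, lie within the gene. The printed Acp5 window holds the most matches among the 3 windows of that gene, and the others hold 1 match each. The matches describe letters in these windows and are not shown to be binding sites.

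For levels between genes, values were divided by exon length and are given per kilobase. In WT, Acp5 led at 8869 ± 2183 (SD, n = 2), at percentiles 99.5 and 99.3 of the tested genes of its library. Next came Atp6v0d2 at 946 ± 65.3, Nfatc1 at 791 ± 84.5 and Tnfrsf11a at 557 ± 184 per kilobase, and neighbours down to Slc9b2 did not overlap. Slc9b2, Mitf and Dcstamp, at 212 ± 23.4, 199 ± 0.935 and 193 ± 107 per kilobase, overlapped each with the next. Ocstamp, Car2 and Oscar closed the order at 72.6 ± 24.6, 25.8 ± 14.9 and 4.84 ± 1.52 per kilobase.

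The order per kilobase was another one in EpiKO. Acp5 still led, at 1469 ± 615 (SD, n = 2), followed by Tnfrsf11a at 318 ± 11.8 and Nfatc1 at 259 ± 24.0. Dcstamp and Mitf overlapped, at 180 ± 72.9 and 141 ± 21.4 per kilobase, and both stood above Atp6v0d2 at 92.4 ± 38.1. Ocstamp and Car2 overlapped, at 15.1 ± 10.5 and 12.4 ± 3.20 per kilobase, and Slc9b2, at 7.88 ± 2.15, stood above Oscar alone, at 0.256 ± 0.362. In percentiles of its library, Slc9b2 was at 66.0 and 69.9 for WT and at 11.5 and 7.52 for EpiKO. Atp6v0d2 was at percentiles 92.5 and 91.9 for WT and at 53.3 and 38.3 for EpiKO. The percentiles of Dcstamp were 73.8 and 53.0 for WT and 70.2 and 55.4 for EpiKO, so its rank overlapped between the groups.

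**Figure D3:**
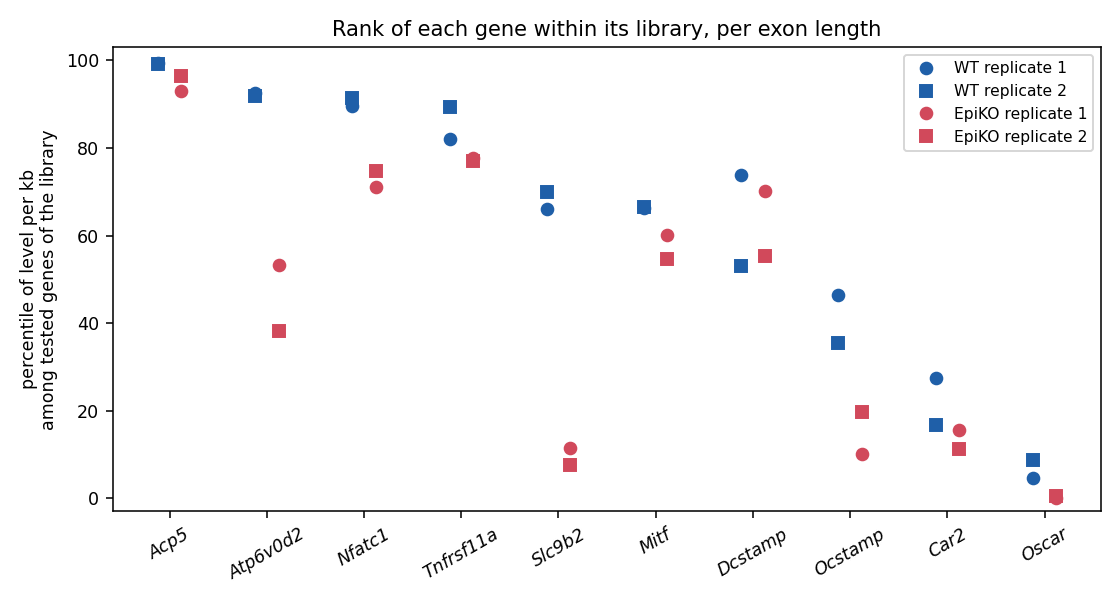
Percentile of each gene's level per kilobase of exon among the 11725 tested genes with a known length, in each library, with genes ordered by their WT mean. Slc9b2 and Atp6v0d2 are at 66.0 and 92.5 in WT replicate 1 and at 11.5 and 53.3 in EpiKO replicate 1, while the EpiKO points of Dcstamp lie between its WT points.

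The rest of the pathway was examined in lists of other osteoclast genes. Among 10 receptor and co-stimulation genes, 1 rose and 9 did not pass by limma, where 0.417% of all tested genes were called higher, and the median log2 fold change was 0.067. Csf1, the growth factor that sustains osteoclast precursors, was the one called, with 269 and 197 in the WT libraries against 814 and 1053 in the EpiKO libraries. It rose by 2.00 on the log2 scale (SE 0.215, limma adjusted p = 0.0425). Its receptor gene Csf1r had a log2 fold change of -0.23 (95% interval -0.84 to 0.39), and the adaptor genes Tyrobp and Fcer1g had -0.16 and 0.084. Siglec15, a lectin of osteoclast precursors that signals through the Tyrobp product, read 71.9 and 48.8 in the WT libraries against 9.69 and 3.78 in the EpiKO libraries. This difference, -3.07 on the log2 scale, did not pass by limma (adjusted p = 0.0854) and passed by DESeq2 (adjusted p = 0.00102).

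Of 23 tested genes that carry the signal from RANK and its co-receptors to NFATc1, limma and edgeR called 0, DESeq2 called 1, and 6 had an unadjusted p under 0.05 by limma, beside 6.85% and 15.6% of all tested genes. Their median log2 fold change was -0.019. The one DESeq2 called was Nfkb2, of the alternative NF-kB branch, with 3201 and 3186 in the WT libraries against 2057 and 2123 in the EpiKO libraries (log2 fold change -0.61, limma adjusted p = 0.0733, DESeq2 adjusted p = 0.000904). Its partner Relb, the adaptor gene Traf2 and Rela had log2 fold changes of -0.58, -0.59 and -0.46. Traf6, whose product binds RANK, had -0.14 (95% interval -0.47 to 0.18). Ppp3ca, a catalytic subunit of calcineurin, which activates NFAT factors, had 0.058 (95% interval -0.23 to 0.34). Camk4 had no read.

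Of 11 transcription partners, 1 fell and 10 did not pass by limma, where 0.530% of all tested genes were called lower. DESeq2 called 3 lower, where 3.12% of all tested genes were. The median log2 fold change was -0.20. Jdp2, an AP-1 family factor that promotes osteoclast formation, read 3747 and 2996 in the WT libraries against 1422 and 1277 in the EpiKO libraries. It fell by 1.31 on the log2 scale (SE 0.149, limma adjusted p = 0.0427). Ppargc1b, a coactivator of mitochondrial genes in osteoclasts, had a log2 fold change of -1.28 (limma adjusted p = 0.0602). Prdm1, which represses genes that hold back osteoclast formation, had -0.89 (limma adjusted p = 0.0864), and DESeq2 called both. Fos, which osteoclast formation requires, overlapped between the groups, with values of 31210 to 39910.

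Among 13 genes that restrain osteoclast formation, limma and edgeR called 0, DESeq2 called 2, and 5 had an unadjusted p under 0.05 by limma (6.85% and 15.6% of all tested genes). The median log2 fold change was -0.074. The smallest p belonged to Traf3, Nrros and Rbpj, with log2 fold changes of -0.69, 0.52 and 0.47 and limma adjusted p from 0.0880 to 0.205. DESeq2 called Traf3 (adjusted p = 0.00648) and Nrros (adjusted p = 0.0415). Irf8, a repressor of Nfatc1 activity in precursors, overlapped between the groups, with values of 3465 to 4937.

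Among 15 other genes of cell fusion, limma and edgeR called 0, DESeq2 called 2, and 2 had an unadjusted p under 0.05 by limma, where 6.85% and 15.6% of all tested genes did. The median log2 fold change was 0.041. Itgav, an integrin chain, read 7117 and 8724 in the WT libraries against 3471 and 3922 in the EpiKO libraries (log2 fold change -1.09, limma adjusted p = 0.0540). Ccl2, a chemokine that promotes fusion, had a log2 fold change of 1.37 (limma adjusted p = 0.0817). These were the genes DESeq2 called, with adjusted p of 2.5e-07 and 2.2e-06. Cdh1, encoding E-cadherin, read 547 and 361 for WT and 4437 and 685 for EpiKO, so that EpiKO replicate 1 stood far above the rest. Dnm2, a dynamin, had a log2 fold change of 0.27 (limma adjusted p = 0.367).

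Of 10 tested resorption genes, 1 fell and 9 did not pass by limma, where 0.530% of all tested genes were called lower. DESeq2 called 3 lower, Ctsk, Mmp9 and Slc4a2, where 3.12% of all tested genes were. The median log2 fold change was -0.38. Ctsk, encoding the collagenase cathepsin K that the series title names, fell by 4.58 on the log2 scale (limma adjusted p = 0.0329), beside -4.74 for Slc9b2. Mmp9, a gelatinase, read 4120 and 2325 in the WT libraries against 1307 and 1311 in the EpiKO libraries (log2 fold change -1.24, limma adjusted p = 0.134, DESeq2 adjusted p = 0.00041). The bicarbonate exchanger Slc4a2, the proton pump subunit Tcirg1 and the sorting nexin Snx10 had log2 fold changes of -0.52, -0.38 and -0.37. Both EpiKO libraries lay below both WT libraries for 5 of the 10, these 3 with Ctsk and Mmp9, where 23.8% of all tested genes did so. Clcn7, Ostm1, Mmp14 and Plekhm1 had log2 fold changes of 0.14, -0.0043, 0.062 and 0.15, with both EpiKO libraries above both WT libraries for Plekhm1, and Ckb had -0.52 with overlapping groups. Calcr had 18 reads over the WT group and 0 over the EpiKO group. With 3 reads over the EpiKO group as the floor, Calcr was 5.81-fold higher in WT. This figure too leaves out counting error in WT and the spread between libraries. None of Csf1, Jdp2 and Ctsk passed by limma when any 1 library was left out, with adjusted p from 0.0676 to 0.185.

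**Figure D4:**
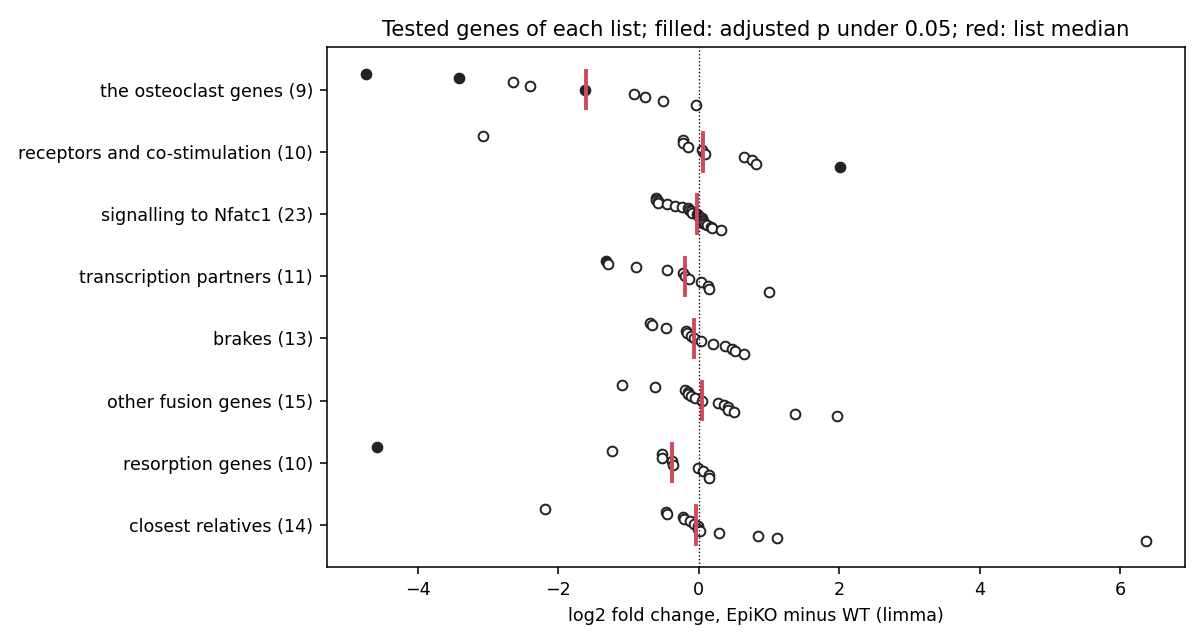
Log2 fold change, EpiKO minus WT, from limma for each tested gene of the 10 osteoclast genes and of the 7 other lists, with the number tested in brackets, filled points for an adjusted p under 0.05 and a red line at each median. The median of the 9 tested osteoclast genes is -1.61, and the medians of the other lists lie between -0.38 and 0.067. The 10 genes and the lists were chosen with earlier results of these data known.

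The genes most like Nfatc1 and Acp5 in their pattern over the 4 libraries were sought among 10741 tested genes whose mean was 50 or more. The measure was the Euclidean distance between centred log2 profiles, where 0 is an identical pattern. Nearest to Nfatc1 were Fnbp1l (distance 0.133), Pde4dip (0.156), Pltp (0.185), Frat2 (0.260) and Lcn2 (0.264). Pltp, the phospholipid transfer protein, read 12516 and 14545 in the WT libraries against 3556 and 4688 in the EpiKO libraries. Nearest to Acp5 were Rrad (0.341), Ogn (0.417), St8sia6 (0.439), Ptchd1 (0.440) and Moxd1 (0.528). Among the 8 genes of the set with a mean of 50 or more, which leaves out Car2 and Oscar, the closest were Ocstamp and Acp5, at 0.532, both with WT replicate 1 highest and EpiKO replicate 1 lowest. The farthest apart were Dcstamp and Slc9b2, at 4.81. With 4 libraries in 2 groups, these distances mostly express the size of the difference between the groups.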

How the data were processed

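The submitters' processing notes name bcl2fastq 2.17, STAR 2.5.2b, featureCounts 1.5.0-p3, DESeq2 and build mm10. The sources used here do not give the annotation or strand setting. The authors deposited a signal per gene, namely read counts over 1 size factor per library. Dividing by the value of 1 read (0.841 to 1.16) returned whole reads for 100% of the values (tolerance 1e-06).

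EpiKO and WT (n = 2 each) were compared on log2(value + 1), a scale that understates changes of low genes. The filter was 10 or more in 2 or more libraries. The test was limma 3.58.1 (R 4.3.3, trend, robust), two-sided, with Benjamini-Hochberg adjustment over 12463 genes and calls at 0.05. Alternatives included edgeR 4.0.16 (120 genes called) and DESeq2 1.42.0 (854) on the recovered reads, against 118 by limma. The scripts were tested on simulated data. Positions and exon lengths came from GENCODE M21 (mm10), promoters from RefSeq.

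The 10 genes, 7 context lists (100 entries) and 14 marker lists were chosen with earlier results of these data known. Of the entries, 6 were matched by another symbol and 1 was not found. The text names all 10 genes, each context list's called genes or else its 4 with the smallest p, the relatives, and some others chosen after their values were seen. A gene that this rule would name is not reported here. Replicate numbers are only names.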

Additional observations from a re-analysis of the deposited data

How the results depend on the processing

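The number of genes called was 118 by limma, 31 without the trend, 854 by DESeq2, 428 at a threshold of 0.1, and between 0 and 4 when 1 library was left out. Of the 9 tested osteoclast genes, 3 were called by limma, 1 (Slc9b2) without the trend, 6 by DESeq2, and between 0 and 2 when 1 library was left out. The other alternatives (pseudocount, filter, scaling, edgeR) called Nfatc1, Atp6v0d2 and Slc9b2, and a threshold of 0.1 added Acp5. Nfatc1, Mitf, Tnfrsf11a, Ocstamp, Acp5, Atp6v0d2, Slc9b2 and Car2 had negative log2 fold changes in each alternative run, though Car2 did not pass the filter at 50. Dcstamp reversed to 0.55 without WT replicate 1 and to 0.38 without EpiKO replicate 2, in a range of -0.64 to 0.55, and the cause was not tested. Equal library totals and quantile normalization moved the median of all genes by -0.028 and -0.010. A fit with 1 library left out takes the spread of the remaining single library to be that of the opposite group. Oscar and Calcr are limited by their few reads.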
